A study of Sus scrofa with 12 samples.

Results

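The transcripts described here are 6 Ensembl pig transcripts whose level was much lower in testis of Duroc than of Large white pigs. They were found by exact identifier among the 63022 transcripts listed for each RNA library, and all 6 were present. The list was drawn up from the same comparison of breeds that is described below. The difference between breeds is therefore given as a description of the libraries, with no test of these 6. The RNA was total RNA from testis, depleted of ribosomal RNA and sequenced with paired-end reads. It came from adult male pigs of 12 months, 3 libraries from the breed labelled Western Duroc and 3 from Large white. No treatment or genetic alteration was stated for either breed. Whether the libraries of a breed came from separate animals is not said in the labels. The spread between libraries may therefore be technical in part. Small RNA libraries of the same breeds, again 3 each, were used only for a check of the tissue, and the Diannan small-ear breed, also named in the series' design, was not analysed here.

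Testis is a mixed tissue. Germ cells pass through mitosis, meiosis and the shaping of sperm inside the seminiferous tubules, beside the Sertoli cells that support them, while Leydig cells outside the tubules make testosterone. Male germ cells transcribe an unusually wide part of the genome, with many long non-coding RNAs and testis-specific isoforms. A transcript, as counted here, is 1 annotated RNA form, and a gene may have several. In bulk tissue, fewer cells of a type and less RNA per cell cannot be told apart. Duroc and Large white are both Western commercial breeds, and the pig reference assembly Sscrofa11.1, which is the build susScr11 of the submitters' processing notes, was made from a Duroc animal, per the header of the RefSeq table of that assembly.

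The identity of the 6 goes no further than their identifier and their length. No table used here pairs Ensembl transcripts with genes, so that no gene name, genome position, coding status or sequence is given for them, and whether any of them come from the same gene was not established. Their lengths were 669 bases for ENSSSCT00000085589.1, 1258 for ENSSSCT00000088460.1, 1384 for ENSSSCT00000084111.1, 2391 for ENSSSCT00000017234.4, 2402 for ENSSSCT00000083579.1 and 2529 for ENSSSCT00000091103.1. All 6 were shorter than the median of 2768 bases over the 24227 transcripts that reached a TPM of 1 in at least 3 of the 6 libraries. TPM is the number of reads per base of effective length, scaled so that the values of all transcripts in a library add up to the same total. The shortest, ENSSSCT00000085589.1, lay at the 6.44th percentile of length among these tested transcripts.

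The RNA libraries held between 17922861 and 25520578 estimated reads. Duroc libraries 1 and 3 stood apart from the rest. Against single Large white libraries, the first of these had 2276 to 2492 tested transcripts that differed by more than 4-fold on TPM + 1, and the other had 1032 to 1089. For Duroc library 2 there were 327 to 377, and the Large white libraries differed from each other in 206 to 269. Germ cell markers could not be looked up in the RNA without gene names. The small RNA levels are in RPM, reads scaled to the same total in each small RNA library. miR-202-5p, a miRNA of the gonads, was present in all 6 small RNA libraries. It ranged over 11412 to 14506 RPM in the Large white libraries. In the Duroc small RNA libraries numbered 1 to 3 it was at 4059, 11611 and 7057 RPM. miR-34c, a miRNA of meiotic and later germ cells, ranged over 12684 to 19235 RPM in the Large white libraries. It was at 18510 RPM in the Duroc small RNA library numbered 2, and at 1216 and 3080 RPM in those numbered 1 and 3. The titles of the RNA and small RNA libraries of one breed and number are the same apart from the assay. They thus give the low miR-34c and the lower miR-202-5p the numbers of the 2 RNA libraries that stood apart. The titles do not say that the RNA and the small RNA came from the same animal. The part of these differences in the levels of the 6 transcripts was not tested.

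The 6 transcripts fell into 3 kinds by what was left in Duroc. For 3 of them no read was assigned in any Duroc library. A further 2, ENSSSCT00000085589.1 and ENSSSCT00000091103.1, kept a trace below 1 TPM. The last, ENSSSCT00000017234.4, was still well expressed in Duroc, at 19.4% of its Large white mean. In all 6 every Duroc library lay below every Large white library. Among all tested transcripts 2340 did so, or 9.66%, and nothing is read from the members' count because they were chosen on this contrast. The groups were also separated in the opposite direction in 8.4% of tested transcripts.

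**Figure D1:**
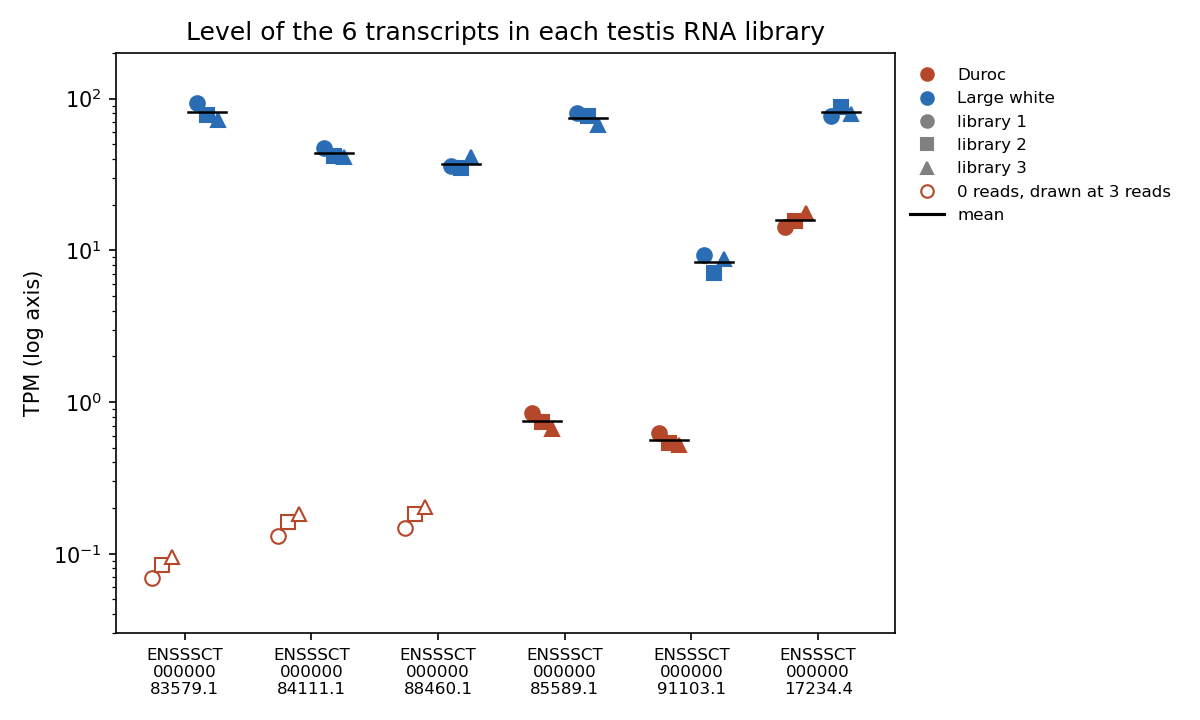
Level of each of the 6 transcripts in TPM on a log axis, with 1 point per library, coloured by breed and shaped by library number, and bars for the means of 3 libraries. Open symbols mark Duroc libraries with 0 reads and are drawn at the level that 3 reads would give. Every Duroc point lies below every Large white point of the same transcript, and only ENSSSCT00000017234.4 is above 10 TPM in Duroc.

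ENSSSCT00000083579.1 was the transcript without Duroc reads that was most abundant in Large white. Its level was 93.4, 78.3 and 72.9 TPM in Large white libraries 1 to 3, and 0 TPM in each of the Duroc libraries. The Large white values rest on 4038, 3264 and 2592 estimated reads, and they placed the transcript between rank 1567 and rank 1889 of the 63022 by TPM. The Large white mean was 81.5 ± 10.7 TPM (SD, n = 3). A count of 0 allows a level of up to 3 reads, which was 0.0692, 0.0848 and 0.0956 TPM in Duroc libraries 1 to 3 and covers counting error only. With this floor taken in each Duroc library, the Duroc mean was at least 980-fold below the Large white mean. The lowest Large white library was 762 times the highest Duroc floor. At the Large white mean, the Duroc libraries would have held 3537, 2885 and 2558 reads of it.

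ENSSSCT00000084111.1 was the steadiest of the 6 in Large white relative to its level. It had 47.3, 42.2 and 41.3 TPM in Large white libraries 1 to 3, from 1077, 925 and 772 reads, and no reads in any Duroc library. The Large white mean was 43.6 ± 3.22 TPM (SD, n = 3), a coefficient of variation of 7.39%. With the floor at 3 reads its Duroc mean was at least 275-fold below its Large white mean. The lowest Large white library was 227 times the highest Duroc floor. At the Large white mean, 719 to 991 reads would have been found in the Duroc libraries.

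ENSSSCT00000088460.1 was the last of the transcripts without Duroc reads. It had 36.0, 34.7 and 41.2 TPM in Large white libraries 1 to 3, from 729, 677 and 684 estimated reads. Large white library 3 was the highest here, whereas library 1 was the highest for the other transcripts without Duroc reads, so the 3 did not share an order within Large white. The Large white mean was 37.3 ± 3.42 TPM (SD, n = 3), and with the same floor the Duroc mean was at least 209-fold below it. The lowest Large white library was 170 times the highest Duroc floor.

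Absence of reads from a whole breed was rare among the tested transcripts. No Duroc library held a read of 10 tested transcripts, or 0.0413%, and the 3 members are among these. The other 7 were far less well covered. They had Large white means between 1.64 and 37.3 TPM from 3.5 to 113 estimated reads summed over the 3 libraries, and 5 of the 7 were shorter than 400 bases. The 3 members had 2090 to 9894 reads summed over the Large white libraries and were 1258 bases or longer. The members were chosen on this contrast, so nothing is read from this comparison. In the opposite direction 18 tested transcripts, or 0.0743%, had no read in any Large white library, with Duroc means of 1.48 to 47.7 TPM and at most 1813 summed reads. Because the filter asks for a TPM of 1 in 3 libraries, a transcript absent from one breed was tested only where all 3 libraries of the other breed reached that level.

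ENSSSCT00000085589.1 was the shortest transcript and had the largest difference among those with some Duroc reads. It had 80.7, 76.6 and 66.6 TPM in Large white libraries 1 to 3 and 0.844, 0.738 and 0.660 TPM in Duroc libraries 1 to 3. The Duroc values rest on 7, 5 and 4 reads, for which the exact Poisson 95% intervals were 2.81 to 14.4, 1.62 to 11.7 and 1.09 to 10.2 reads. Each of the 3 counts lay within the intervals of the others. The Large white values rest on 683, 620 and 457 reads.

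The means of this transcript were 74.6 ± 7.22 TPM in Large white and 0.747 ± 0.0924 TPM in Duroc (SD, n = 3 each), a ratio of 99.9. The lowest Large white library was 78.9 times the highest Duroc library. In the Duroc libraries the reads came to 1.13%, 0.988% and 0.885% of the number that the Large white mean would have given. Duroc library 2 lay between libraries 1 and 3, an order that so few Duroc reads do not resolve. It differed from libraries 1 and 3 by more than 4-fold on TPM + 1 in 2945 and 1189 tested transcripts. The part of that difference in the level of this transcript was not tested.

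ENSSSCT00000091103.1 was the least abundant of the 6 in Large white and the longest. It had 9.35, 7.11 and 8.80 TPM in Large white libraries 1 to 3, from 428, 314 and 332 estimated reads. In Duroc it had 0.628, 0.534 and 0.525 TPM, from 28.9, 20.0 and 17.4 estimated reads. The Poisson intervals of the Duroc reads overlapped, at 19.3 to 41.5, 12.2 to 30.9 and 10.2 to 27.8. The Large white mean of 8.42 ± 1.16 TPM was 15.0 times the Duroc mean of 0.562 ± 0.0574 TPM (SD, n = 3 each).

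ENSSSCT00000017234.4 differed least and had the most reads of the 6 in Duroc. It had 76.7, 88.7 and 79.3 TPM in Large white libraries 1 to 3 and 14.3, 15.6 and 17.6 TPM in Duroc libraries 1 to 3. These rest on 3296, 3678 and 2808 estimated reads in Large white and on 616, 549 and 550 in Duroc. The ranks by TPM were 1459 to 1893 in Large white and 6395 to 7484 in Duroc. The means were 81.6 ± 6.33 TPM in Large white and 15.8 ± 1.69 TPM in Duroc (SD, n = 3 each), a ratio of 5.15, and the lowest Large white library was 4.35 times the highest Duroc library.

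In Large white ENSSSCT00000017234.4 could not be told from ENSSSCT00000083579.1 by level. Their means were 81.6 and 81.5 TPM, and which of them was higher changed between the libraries. In Duroc one of them kept 14.3 to 17.6 TPM and the other had no reads. ENSSSCT00000085589.1 followed in Large white at 74.6 TPM, with a range that overlapped that of ENSSSCT00000083579.1 although it was lower in each of the 3 libraries. ENSSSCT00000084111.1 and ENSSSCT00000088460.1 came next. Their ranges did not overlap, but only just, with 41.3 TPM as the lowest value of the first and 41.2 as the highest of the second. ENSSSCT00000091103.1 was clearly the lowest. The order of the ratios between breeds was not that of the levels in Large white.

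**Figure D2:**
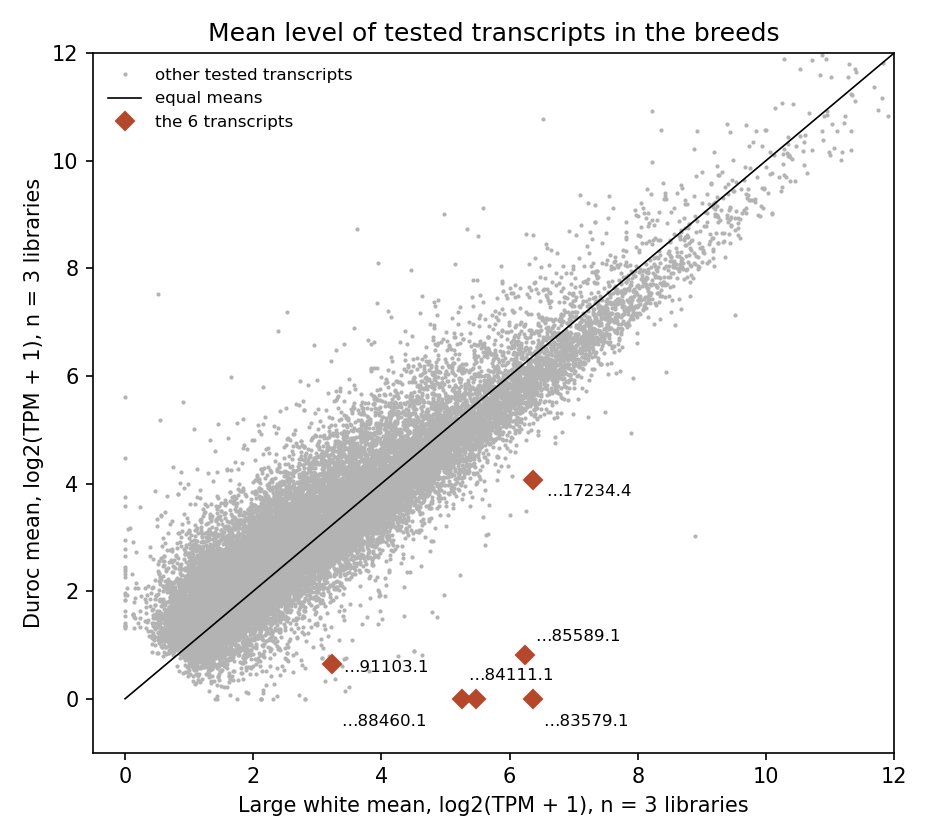
Mean level of each tested transcript in Large white (horizontal) and Duroc (vertical), both as log2(TPM + 1) over 3 libraries, with the 6 transcripts as diamonds and a line of equal means. The axes end at 12, which leaves out 9 transcripts. The 3 members without Duroc reads lie on the zero line of Duroc at Large white means of 37.3 to 81.5 TPM. Of the 6, ENSSSCT00000017234.4 lies nearest to the line of equal means.

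Summed over the 6, the transcripts took 0.0402%, 0.0412% and 0.0372% of the reads in Large white libraries 1 to 3 and 0.00270%, 0.00289% and 0.00319% in Duroc libraries 1 to 3. In Duroc nearly all of this was ENSSSCT00000017234.4. The Duroc libraries differed little from each other in this sum, and Duroc library 2 lay between the other 2.

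A fit over all tested transcripts gives the background for these differences. By edgeR's quasi-likelihood test with breed as its term, 5 of the 24227 transcripts were called lower in Duroc at an adjusted p of 0.05, or 0.0206%, and 4 were called higher, or 0.0165%. The 5 called lower are 5 of the 6 described here, and the exception is ENSSSCT00000017234.4. As the members were chosen on this contrast, nothing is read from that count. All 6 were called lower with edgeR scaled by library totals, with DESeq2 and with limma on log2(TPM + 1) or log2(TPM + 0.1). Over all tested transcripts these settings called 7, 123, 12 and 11 lower, in that order. With DESeq2 size factors edgeR called 5 lower, and without the filter 5 of 54056, with 5 members in each case. With the replicate number as a block edgeR called 0, and so none of the 6. With edgeR and TMM the calls depended on single libraries. No tested transcript, and so none of the 6, was called by edgeR when any 1 of the Large white libraries was left out. Without Duroc library 3, 4 tested transcripts were called lower, and 3 of them were members. Without Duroc library 1, 4 were called lower, all of them members. Without Duroc library 2, 3409 tested transcripts were called lower and 4964 higher, and all 6 members were among those called lower. Nothing is read from these member counts either. With Duroc library 2 alone against Large white the spread comes from Large white only, so no calls are given for it.

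The ratios of the means, in contrast to the calls, moved little. Leaving out 1 of 3 libraries shifts a mean by less than its SD by construction, so this is a description only. For the lower bounds, leaving out a Duroc library changes only the floor, which that SD does not cover. When any 1 library was left out, the ratio stayed between 94.4 and 107 for ENSSSCT00000085589.1, between 14.1 and 16.1 for ENSSSCT00000091103.1 and between 4.91 and 5.46 for ENSSSCT00000017234.4. The lower bound stayed between 904 and 1059 for ENSSSCT00000083579.1, between 254 and 297 for ENSSSCT00000084111.1 and between 193 and 226 for ENSSSCT00000088460.1.

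Large differences of mean were not limited to these 6. The Large white mean was at least 5 times the Duroc mean in 143 tested transcripts, or 0.59%. The 137 that are not on the list had a median Large white level of 4.77 TPM, a median of 346 summed Large white reads and a median coefficient of variation in Large white of 41.7%. The corresponding medians over the 6 were 59.1 TPM, 2432 reads and 9.42%. In 38 of the 137 the lowest Large white library was at least 4 times the highest Duroc library, as it was in all 6. Of those 38, 4 had at least as many summed Large white reads as the least covered of the 6, ENSSSCT00000091103.1, with 1073. These cut-offs were set with the members' values in view, and the members were chosen on this contrast. Nothing is therefore read from this comparison or from the medians.

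The spread between libraries of one breed was ordinary for their level in Large white and small in Duroc. The coefficient of variation in Large white was between 7.39% for ENSSSCT00000084111.1 and 13.8% for ENSSSCT00000091103.1. Between 25.5% and 61.5% of the tested transcripts within 2-fold of the same Large white level had a smaller one. In Duroc the coefficient was 12.4% for ENSSSCT00000085589.1, 10.2% for ENSSSCT00000091103.1 and 10.7% for ENSSSCT00000017234.4. Of the transcripts within 2-fold of the same Duroc level, 4.25%, 2.20% and 6.11% had a smaller one, and the medians of these sets were 54.6%, 67.1% and 42.3%. For ENSSSCT00000085589.1 and ENSSSCT00000091103.1 the Duroc coefficient rests on few reads, 16 and 66.3 summed over the 3 libraries. Counting error therefore limits what it can show. Both were below 1 TPM in every Duroc library and passed the filter only through Large white. The transcripts set beside them had passed the same filter. The members were also chosen on this contrast, so the spread is given as a description and nothing is read from it.

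**Figure D3:**
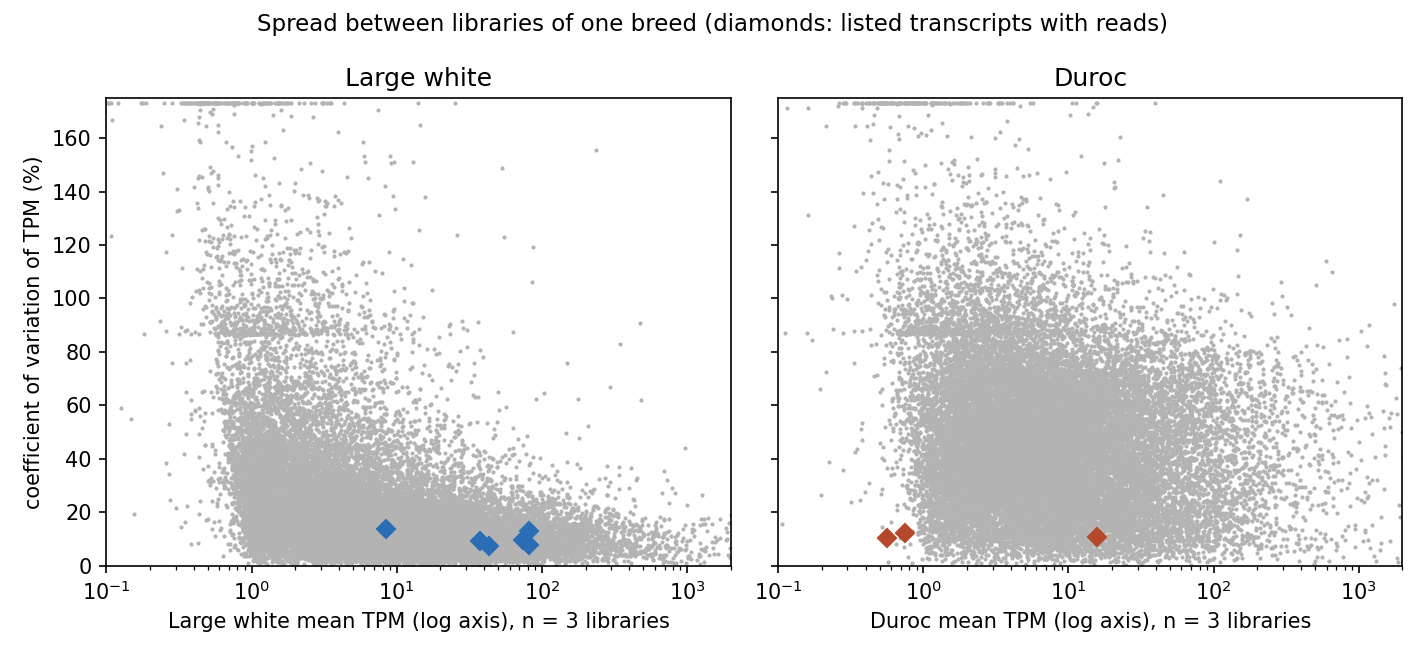
Coefficient of variation of TPM in percent against the mean TPM on a log axis, for Large white at the left and Duroc at the right, with 3 libraries per breed. Grey points are the other tested transcripts and diamonds are the listed transcripts that have reads in that breed, 6 in Large white and 3 in Duroc. The diamonds lie between 7.39% and 13.8%, among the grey points in Large white and at their lower edge in Duroc.

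The estimated reads of the 6 differed in whether they were whole numbers. A fractional estimate can arise where a read matches more than 1 transcript and is divided between them, but a whole number does not show that no read was shared. ENSSSCT00000085589.1 had whole numbers of reads in all 6 libraries, and ENSSSCT00000084111.1 in the 3 libraries in which it had any, to within 1e-06 of a read. Of the tested transcripts 14.0% were whole in every library that held their reads. ENSSSCT00000083579.1 and ENSSSCT00000088460.1 had fractional values in all 3 Large white libraries. ENSSSCT00000017234.4 was whole in 4 of 6 libraries and ENSSSCT00000091103.1 in 2 of 6. The division of reads between transcripts is a step of the estimate, and its part in the zeros of Duroc was not tested. A gene's other transcripts were not summed, so a lower transcript is not shown to be a lower gene.

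Effective length, the divisor in TPM, differed little between the libraries. It was 248 to 256 bases shorter than the full length in Large white and 255 to 260 bases shorter in Duroc for transcripts over 1000 bases. For ENSSSCT00000085589.1, where this matters most, it was 409 to 415 bases in Duroc and 414 to 422 in Large white.

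The transcripts whose pattern over the 6 libraries was most like that of the members were found by Pearson's r on log2(TPM + 1), as the 3 with the highest median r to the 6. This is a description over 6 libraries, in which any transcript that is steady within both breeds and lower in Duroc has a high r whatever its size. Among the members themselves the lowest r was 0.986 over 15 pairs. ENSSSCT00000054920.2 had a median r of 0.997, with 3.68 to 3.97 TPM in Duroc and 7.59 to 7.62 in Large white, a ratio of 2.01. ENSSSCT00000080137.1 had a median r of 0.997 as well. It had 5.22, 5.56 and 5.95 TPM in Large white libraries 1 to 3, 0.132 TPM in Duroc library 1 and no reads in Duroc libraries 2 and 3, so that it was closest to the members in kind, at a lower level. ENSSSCT00000008466.3 had the same median r of 0.997 with a much smaller difference, at 41.0 to 42.0 TPM in Duroc and 55.6 to 57.7 in Large white, a ratio of 1.36.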

How the data were processed

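Per the submitters' processing notes, STAR 2.7.10a, Salmon 1.9.0, Bowtie 1.3.1 and the build susScr11 were used. The role of each tool is not given in the sources used here, nor is the annotation. Each deposited RNA file lists length, effective length, TPM and an estimated count of reads per transcript, per the file headers. The deposited small RNA files give RPM, scaled by the authors to the summed reads of the file. Members and lists were chosen with earlier results of these data known. Estimated reads were rounded and fitted over the 24227 transcripts with a TPM of at least 1 in at least 3 of 6 libraries. The fit used edgeR 4.0.16 in R 4.3.3 (quasi-likelihood test, TMM scaling, Benjamini-Hochberg adjustment, threshold 0.05). It was tried on simulated reads drawn independently for each library, without the differences between Duroc libraries seen here. The trial therefore does not show how reliable the calls are. DESeq2 1.42.0 and limma 3.58.1 served as alternatives. Ratios are of mean TPM, with 3 reads per Duroc library as the floor where no read was assigned. The named transcripts are the members and the 3 most like them by median Pearson r. Lists of cell type markers by gene symbol were not used, as no table used here pairs transcripts with symbols. The bands, counts and ratios used to set the members beside other transcripts were chosen after the values were seen.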

Additional observations from a re-analysis of the deposited data

How the results depend on the processing

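All 6 ratios of means kept their direction under every alternative run. Leaving out 1 library could not change it, as every Duroc library lay below every Large white library. Of 63 alternative values 58 moved by less than the spread between replicates. Many of these left out 1 of 3 libraries, which shifts a mean by less than its SD by construction. They are therefore a description and no test of the ratios. A floor of 1 read raised the lower bounds to 2940 for ENSSSCT00000083579.1, 825 for ENSSSCT00000084111.1 and 627 for ENSSSCT00000088460.1, by its own construction. For ENSSSCT00000084111.1 the bound was 254 without Duroc library 1 and 297 without Duroc library 3, against 275 with all libraries. Both moved beyond the spread between replicates, through the floor only. Estimated reads scaled by library totals or TMM, without length, TPM without the 3037 transcripts of effective length under 100 bases, and Duroc library 2 alone, which was chosen after the data were seen, moved no ratio beyond that spread.

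The number of transcripts called between the breeds was less stable. Against 9 with edgeR, limma called 20 on log2(TPM + 1) and 20 on log2(TPM + 0.1), and DESeq2 called 428. Leaving out 1 library gave between 0 and 8373 calls, with 0 without any 1 of the Large white libraries (edgeR; 1263, 1476 and 1400 transcripts then had an unadjusted p under 0.05), 8373 without Duroc library 2 and 4 without Duroc library 3. The cause was not tested. With the replicate number as a block edgeR called 0, with 1894 at an unadjusted p under 0.05. Deviations from the breed mean correlated between -0.0063 and 0.023 for same-numbered libraries, and between -0.0676 and 0.0538 for differently numbered ones. With 3 libraries per breed this cannot settle whether same-numbered libraries shared a batch. The median log2 fold change of all tested transcripts, Duroc minus Large white, was 0.07 with TMM and 0.19 with library totals. Small values in Duroc rest on few reads, 16 in all for ENSSSCT00000085589.1 and 66.3 for ENSSSCT00000091103.1.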
